A study of Mus musculus with 8 samples.

Results

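The genes of oxidative phosphorylation were followed in mouse dorsal root ganglia after ligation of a spinal nerve. They were chosen as a set with earlier results of these data known. The set was taken by symbol and not by expression change: protein-coding genes whose symbols begin with Ndufa, Ndufb, Ndufc, Ndufs, Ndufv, Uqcr, Cox4, Cox5, Cox6, Cox7, Cox8, Atp5, mt-Nd, mt-Co, mt-Atp or mt-Cytb, and Sdha, Sdhb, Sdhc and Sdhd, with 50 or more reads summed over all libraries. Of 106 protein-coding genes with such symbols among the 53801 genes of the count table, 97 had enough reads, 90 encoded in the nucleus and 7 in the mitochondrial genome. By the complex they serve, the nuclear genes divide into 36 for complex I, 4 for complex II, 8 for complex III, 18 for complex IV and 15 for complex V. The other 9 (Ndufaf1 to Ndufaf8 and Atp5s) share a symbol prefix but encode assembly or coupling factors, not structural subunits.

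Oxidative phosphorylation is the mitochondrial route to ATP. Complexes I and II pass electrons to ubiquinone, complex III passes them on to cytochrome c, complex IV hands them to oxygen, and complex V, the ATP synthase, uses the proton gradient that complexes I, III and IV build. Complexes I, III, IV and V are assembled from subunits of both genomes and complex II from nuclear subunits only, and sensory neurons, whose long axons fire and transport cargo, are known for a high demand for mitochondrial ATP.

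The injured ganglia came from male C57BL/6J mice whose left L4 spinal nerve had been tied tightly with silk, and were collected at days 1, 3 and 7. The contralateral ganglia were the right side of the same mice at the same days, and the ganglia labelled no injury were the left and right side of a further pool titled WT, for which no day after surgery is given; the protocol that names male C57BL/6J mice is attached to these samples too. Each of the 8 libraries holds RNA from ganglia L3, L4 and L5 of 1 side of 3 pooled mice, so every injured library mixes the L4 ganglion with neighbours whose nerve was not ligated. Each side was sequenced in 1 library a day, so the 3 operated pools are the replicates for injury and the days themselves are unreplicated. The treatment protocol also names sham controls, but no sample is labelled sham. Whether the pool labelled no injury had sham surgery is therefore not known.

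Library totals lay between 20488115 and 21652688 reads. The libraries labelled no injury held 4931 and 4129 reads of Xist, a transcript of the inactive X chromosome, and no reads of the Y-linked gene Kdm5d, while the operated libraries held 0 to 3 reads of Xist and 280 to 354 of Kdm5d. The pool labelled no injury thus goes against the label male, and in each comparison with it, sex and surgery cannot be told apart. Atf3, a transcription factor induced in axotomised neurons, had 9497, 13304 and 13048 reads in injured ganglia at days 1, 3 and 7. It had 2675, 3570 and 2340 reads in contralateral ganglia and 226 and 238 in ganglia labelled no injury. Contralateral counts of Atf3 were thus also above those of the pool labelled no injury. So were those of the gene Gal, at 471, 2851 and 1773 against 173 and 222 reads. Contralateral ganglia are therefore a reference within the same mice and not shown to be unaffected by surgery. The 20 pan-neuronal genes taken to check the tissue summed to 27710 to 29920 CPM (reads scaled to a common library size, TMM-normalised) in injured ganglia. Their sum was 29730 to 31320 CPM in contralateral and 27870 and 28650 CPM in no-injury ganglia. Genes of this list moved both ways. Rbfox3, Isl1 and Pou4f1 averaged 174, 70.6 and 160 CPM in injured and 217, 92.6 and 199 CPM in contralateral ganglia. Each was called lower after injury. The more abundant Stmn2 and Tubb3 averaged 2950 and 3490 CPM in injured and 2220 and 2780 CPM in contralateral ganglia. Neither was called (edgeR adjusted p = 0.0546 and 0.0981), and no gene of the list was called higher. The sum therefore does not show the level of each gene.

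Start-site sequence is shown for 4 nuclear subunits, because these members are named in the results that follow and differ in what their promoters hold. RefSeq promoter windows (GRCm38.p6, 250 bases before to 50 after the start site, 300 bases in all) were found for 74 of the 90 nuclear genes. Capitals mark matches, on either strand, to the motif of NRF1 (GCGCANGCG), the factor long tied to respiratory chain promoters, and of ERRalpha (TCAAGGTCA), a nuclear receptor that works with PGC-1alpha. All 4 genes lie on the minus strand, and each sequence reads 5′ to 3′ along the gene: Sdhd (chr9:50603800-50604099), Sdha (chr13:74350191-74350490), Ndufb10 (chr17:24724374-24724673) and Uqcrfs1 (chr13:30545267-30545566).
Sdhd: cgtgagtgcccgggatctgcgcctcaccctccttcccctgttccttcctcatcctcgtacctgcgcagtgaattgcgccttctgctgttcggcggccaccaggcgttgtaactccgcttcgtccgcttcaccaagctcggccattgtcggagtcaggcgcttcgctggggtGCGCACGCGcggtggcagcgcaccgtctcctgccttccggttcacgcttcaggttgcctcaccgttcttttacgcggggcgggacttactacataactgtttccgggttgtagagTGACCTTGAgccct
Sdha: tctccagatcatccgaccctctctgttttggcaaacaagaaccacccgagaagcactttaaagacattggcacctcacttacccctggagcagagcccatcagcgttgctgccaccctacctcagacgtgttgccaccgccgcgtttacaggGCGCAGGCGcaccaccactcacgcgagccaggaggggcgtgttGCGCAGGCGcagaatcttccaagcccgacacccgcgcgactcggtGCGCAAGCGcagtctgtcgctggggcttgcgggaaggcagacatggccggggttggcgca
Ndufb10: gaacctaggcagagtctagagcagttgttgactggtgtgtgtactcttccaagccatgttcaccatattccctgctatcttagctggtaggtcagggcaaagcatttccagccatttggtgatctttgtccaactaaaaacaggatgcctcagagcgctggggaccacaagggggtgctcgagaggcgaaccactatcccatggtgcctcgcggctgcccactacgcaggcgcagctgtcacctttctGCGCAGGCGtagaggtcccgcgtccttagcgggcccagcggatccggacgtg
Uqcrfs1: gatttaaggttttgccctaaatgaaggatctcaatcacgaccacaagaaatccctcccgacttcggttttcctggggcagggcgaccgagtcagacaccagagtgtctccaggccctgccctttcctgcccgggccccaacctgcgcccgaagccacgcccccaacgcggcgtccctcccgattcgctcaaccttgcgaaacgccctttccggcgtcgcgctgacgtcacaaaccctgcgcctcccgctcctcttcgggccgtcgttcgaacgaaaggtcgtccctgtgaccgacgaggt

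Sdhd held 1 NRF1 match starting 79 bases before the start site and 1 ERRalpha match after it, Sdha held 3 NRF1 matches and Ndufb10 held 1, and Uqcrfs1 held none of the 4 motifs searched. The matches do not overlap in these windows. Over the set, 21 of 74 promoters (28.4%) matched the NRF1 motif, against 1901 of 27025 genes with a window (7.03%). The YY1 motif AAGATGGCG was in 8 of 74 (10.8%, against 1.64% of genes), the ERRalpha motif in 2 of 74 (2.7%, against 0.466%) and the GABPA motif ACTTCCGG in 5 of 74 (6.76%, against 4.31%). Of the 7 genes lower after injury, described next, Sdhd, Ndufb10, Uqcrfs1 and Ndufaf3 had a window, and Ndufaf3 held no match either. The NRF1 and YY1 letters were shortened by 1 base after a first search of the promoters, so their shares are not an independent test. The genes compared are all those with a RefSeq window, whether expressed or not. A match describes the letters of the window and is not a measured binding site.

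Of the 90 nuclear genes 7 were lower in injured ganglia and none was higher, and no mitochondrially encoded gene was called in either direction. The 7 included the complex III subunits Uqcrfs1 and Uqcrc2 and the complex I subunits Ndufb10, Ndufb9 and Ndufs1. The others were the complex II subunit Sdhd and the complex I assembly factor Ndufaf3. Each of the 7 was at 0.803 to 0.866 times the level of the contralateral side. The test was edgeR's quasi-likelihood F test on all 8 libraries, blocked by pool, adjusted over the 16244 genes tested. All 97 genes of the set passed its filter on low counts. Of all genes tested, 8.02% were called lower and 10.1% higher, so a share of 7 in 90 nuclear genes lies near the background of lower calls, while 0 higher calls stand against 10.1%. At an unadjusted p under 0.05, 25 nuclear genes were lower and 2 higher, against 16.2% and 18.5% of all genes.

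Uqcrfs1, the Rieske iron-sulfur protein of complex III (chromosome 13), gave the lowest p of the set. It had 105, 98.9 and 97.7 CPM in injured ganglia at days 1, 3 and 7, against 124, 119 and 120 CPM in contralateral ganglia and 119 and 118 CPM in ganglia labelled no injury. All 3 injured libraries lay below all 5 others, at every day. The means were 101 ± 4.06 CPM in injured and 121 ± 2.56 CPM in contralateral ganglia (SD, n = 3 each), and edgeR gave a log2 fold change of -0.26 ± 0.05 (SE, adjusted p = 0.0138). Uqcrc2, a core protein of the same complex (chromosome 7), had 195, 165 and 163 CPM in injured ganglia, against 214, 200 and 198 CPM in contralateral ganglia and 204 and 206 CPM in no-injury ganglia. The injured library was the lower of its pair at every day, and all 3 were again below the other 5; the log2 fold change was -0.23 ± 0.06 (edgeR adjusted p = 0.0311). For Uqcrc2, 17.6% of its 50-base stretches also occur in the transcripts of Pdzd9, a gene with 11 reads in all. The other complex III genes were fitted below 0 as well, 8 of 8, among them Uqcrh, the hinge protein, at -0.19 and Uqcr11, a small accessory subunit, at -0.17, neither of which passed the test (edgeR adjusted p = 0.106 and 0.213).

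In complex I, 3 of 36 genes passed the test, all lower, and 35 of 36 were fitted below 0. Ndufb10, an accessory subunit of the membrane arm (chromosome 17), had 84.7, 72.6 and 67.1 CPM in injured ganglia at days 1, 3 and 7, against 94.3, 85.9 and 86.5 CPM in contralateral ganglia and 92.5 and 89.4 CPM in no-injury ganglia. The injured values lay below all others, and the gap within a pool was widest at day 7. Its log2 fold change was -0.25 ± 0.06 (edgeR adjusted p = 0.0249). Ndufs1, the largest subunit of the peripheral arm and a carrier of iron-sulfur clusters (chromosome 1), had 189, 175 and 174 CPM in injured ganglia, against 210, 209 and 202 CPM in contralateral ganglia and 208 and 196 CPM in no-injury ganglia. It was lower in every injured library, by -0.21 ± 0.06 on the log2 scale (edgeR adjusted p = 0.0401). Ndufb9, another membrane arm subunit (chromosome 15), had 53.6, 47.2 and 42.3 CPM in injured ganglia, against 61.3, 52.3 and 57.9 CPM in contralateral ganglia and 57.0 and 55.4 CPM in no-injury ganglia. Here the injured day 1 library lay above the contralateral day 3 library, so the sides overlap across days although the injured side was lower within each pool, by -0.27 ± 0.07 (edgeR adjusted p = 0.0388). Ndufc2, a small membrane arm subunit, stood at -0.26 and missed the threshold (edgeR adjusted p = 0.0763).

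Ndufaf3, which helps to build the arm of complex I that holds the iron-sulfur clusters (chromosome 9), had 19.7, 19.1 and 16.3 CPM in injured ganglia at days 1, 3 and 7, against 24.3, 21.2 and 23.0 CPM in contralateral ganglia and 25.8 and 24.6 CPM in no-injury ganglia. All injured libraries were below all others, and the log2 fold change was -0.32 ± 0.08 (edgeR adjusted p = 0.0374). The call was lost with DESeq2 (adjusted p = 0.0872; 0.0131 to 0.565 over all alternatives). It was the only called gene of the 9 assembly and coupling factors.

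Complex II, the only complex without a mitochondrially encoded subunit, gave 1 call among its 4 genes. Sdhd, a membrane anchor of succinate dehydrogenase (chromosome 9), had 120, 100.4 and 100.8 CPM in injured ganglia at days 1, 3 and 7, against 126, 120 and 129 CPM in contralateral ganglia and 132 and 137 CPM in no-injury ganglia. Its injured day 1 library was level with the contralateral day 3 library, and the lower injured values came at days 3 and 7; the log2 fold change was -0.23 ± 0.07 (edgeR adjusted p = 0.0497). This call lies at the threshold and was lost with limma-voom (adjusted p = 0.0512) and with edgeR scaled from nuclear genes only (adjusted p = 0.0514; 0.00525 to 0.723 over all alternatives). Sdha, the flavoprotein that binds succinate, had 351, 298 and 307 CPM in injured ganglia, against 364, 365 and 358 CPM in contralateral ganglia and 353 and 356 CPM in no-injury ganglia, at a log2 fold change of -0.19 that missed the threshold (edgeR adjusted p = 0.0875). The iron-sulfur subunit Sdhb stood at 0.02 and the anchor Sdhc at -0.07 (edgeR adjusted p = 0.791 and 0.41). Whether the 4 subunits differ from each other was not tested.

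Complexes IV and V had no called gene. Their members were fitted below 0 in 14 of 18 and 13 of 15 cases, with median log2 fold changes of -0.07 for complex IV and -0.10 for complex V, beside -0.13 for each of complexes I, II and III. Atp5b, the catalytic beta subunit of ATP synthase and the most abundant nuclear gene of the set per length (326 RPKM, CPM per kilobase of exon, over all libraries), had 1430, 1350 and 1363 CPM in injured ganglia at days 1, 3 and 7, against 1433, 1396 and 1391 CPM in contralateral ganglia and 1337 and 1365 CPM in no-injury ganglia. The groups overlapped, and its log2 fold change was -0.03 (edgeR adjusted p = 0.821). The lowest p-values in complex V belonged to Atp5mpl, a small membrane subunit, at -0.23, and to the subunits of the catalytic head and its stalks, Atp5c1 at -0.15, Atp5a1 at -0.16 and Atp5o at -0.15 (edgeR adjusted p = 0.0711, 0.0894, 0.142 and 0.187). In complex IV, Ndufa4, a subunit first assigned to complex I, stood at -0.18 and Cox7a2 at -0.14 (edgeR adjusted p = 0.122 and 0.196).

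**Figure D1:**
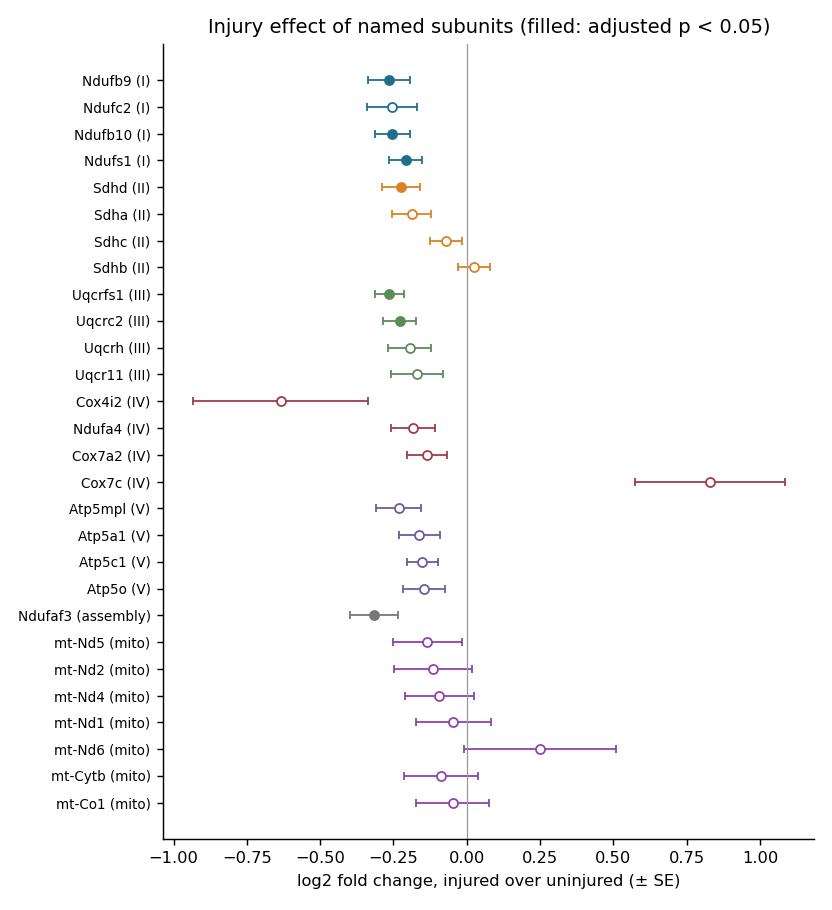
Fitted log2 fold change of the injury effect for the members, grouped by complex and genome. The values lie mostly below 0, and the 7 called members are all nuclear and lower. Over the whole set, shown or not, the median was -0.118 for the 90 nuclear and -0.087 for the 7 mitochondrially encoded members.

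**Figure D2:**
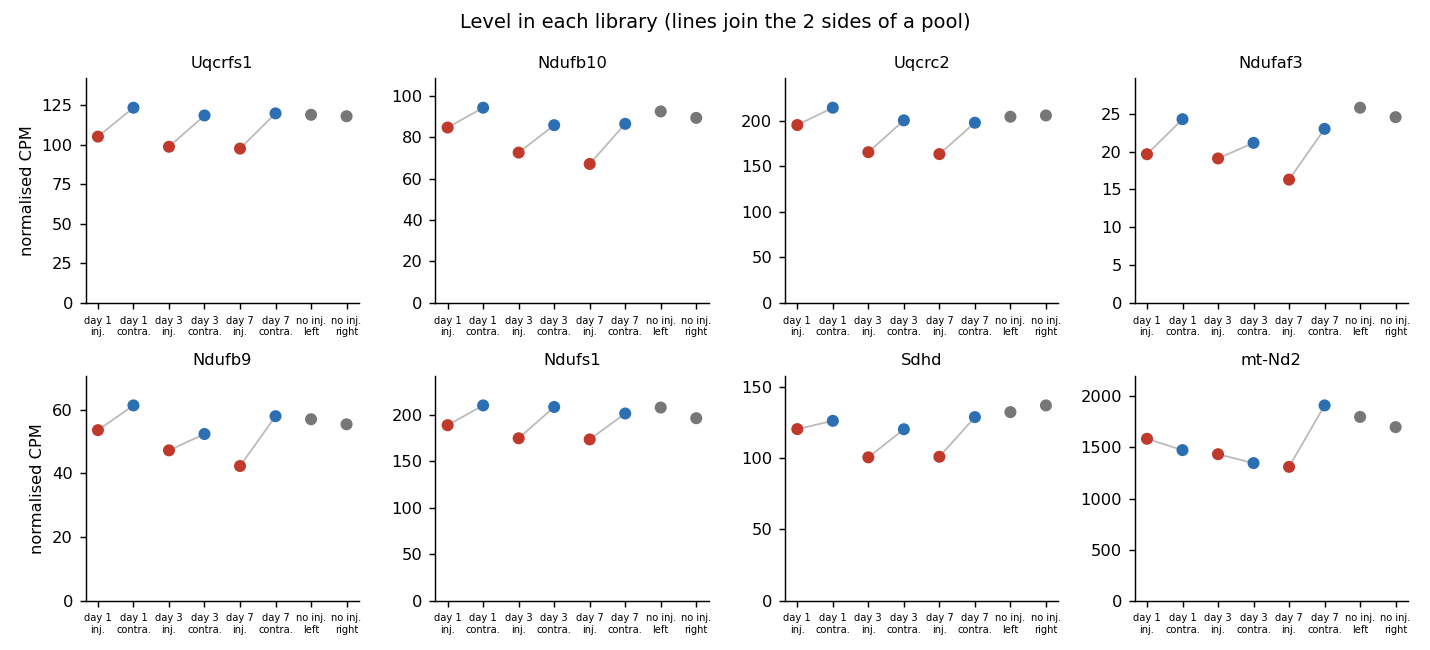
TMM-normalised CPM in each of the 8 libraries for the 7 called nuclear genes and for mt-Nd2 (injured in red, contralateral in blue, no injury in grey). For Uqcrfs1 the injured libraries sit at 97.7 to 105 CPM, below all others, while for mt-Nd2 the injured values of days 1 and 3 lie above their contralateral partners.

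The lower level was small and broad. The median nuclear gene was 0.922 times as abundant in injured ganglia (log2 -0.12), and 80 of 90 were fitted below 0, against 47.5% of all genes tested. A small lower median was not particular to the set. It was -0.10 for electron carriers, -0.10 for the tricarboxylic acid cycle list and -0.09 for assembly factors, which share 8 genes with the set. Pan-neuronal genes had -0.10, mitochondrial biogenesis genes -0.03 and glycolysis genes 0.04. Lists of non-neuronal cell types ranged from -1.06 (neutrophils and marrow) to 1.07 (macrophages). Within pools, 46 of 90 nuclear genes (51.1%) were lower on the injured side at each of the 3 days, against 24.9% of all genes with 50 or more reads, and 3 (Ndufaf4, Cox7c and Atp5d) were higher at each, against 28%. In 12 of 90 (13.3%) the 3 injured libraries lay below all 3 contralateral ones, a share near the 14.5% of all genes. For most nuclear genes, as for most genes with 50 or more reads, the sides overlapped across pools. The 90 genes come from 8 shared libraries and are not independent, and in bulk tissue fewer cells of a type and less RNA per cell cannot be told apart.

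The pools did not contribute equally. The count of called lower nuclear genes was 22 without the day 1 pool, 1 without the day 3 pool (Ndufaf3), 0 without the day 7 pool and 1 without the pool labelled no injury (Uqcrfs1), while the lower calls over all genes went to 2287, 334, 156 and 449. With side, left or right, as a further term beside the pool no nuclear gene was called (1 lower and 1 higher at an unadjusted p under 0.05), and no gene of the whole table was called lower. Injury was always on the left, so apart from the pool labelled no injury, side and injury are the same.

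By day, the nuclear genes lay close to the contralateral level at days 1 and 3 and below it at day 7. Their median log2 ratio of injured to contralateral ganglia was -0.03 at day 1, -0.07 at day 3 and -0.26 at day 7, while the left-to-right ratio of the pool labelled no injury had a median of -0.01. Ratios below 0 numbered 63, 60 and 83 of 90 at days 1, 3 and 7, against 47.8%, 47.8% and 48.9% of all genes. At 0.8 times the contralateral level or less were 2, 5 and 30 nuclear genes, against 13.4%, 18.1% and 17.9% of all genes, so the nuclear set was under that background at days 1 and 3 and above it at day 7. At a limit of 1.5-fold the order at day 7 turned, with 1 of 90 nuclear genes (1.11%) lower, against 1278 of 16923 genes (7.55%): the nuclear shifts were common but small. At 25% or more above it were 3, 4 and 1 nuclear genes, against 14.3%, 25.6% and 19.1%. In the pool labelled no injury 48 of 90 left-to-right ratios were below 0, against 48% of all genes, and 5 were at 0.8 or less and 2 at 25% or more above, against 7.04% and 10.5%. At day 7 the median was -0.28 for complex I with 36 of 36 genes below 0, -0.29 for complex III with 8 of 8, -0.22 for complex V with 13 of 15, -0.20 for complex II and -0.15 for complex IV with 15 of 18. The injured day 7 library held the lowest value of all 8 libraries for 55 of 90 nuclear genes, against 14.4% of all genes, and the injured day 3 library for 14, against 19.3%. The contralateral day 7 library held it for 0, against 6.07%.

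The mitochondrially encoded genes had another order over the days, and whether it differs from that of the nuclear genes was not tested. At days 1 and 3 all 7 had a ratio above 0, with medians of 0.08 and 0.14, and at day 7 all 7 had a ratio below 0, with a median of -0.46. They sit on 1 genome, are read from long shared precursors and were counted in the same libraries, so they are not 7 independent observations, and each day has 1 library a side. Left over right in the pool labelled no injury, their median ratio was 0.08, as large as at day 1, with 6 of 7 above 0. At days 1 and 3 mt-Nd6 alone was 25% or more above the contralateral level, and at day 7, 6 of 7 were at 0.8 times that level or less.

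**Figure D3:**
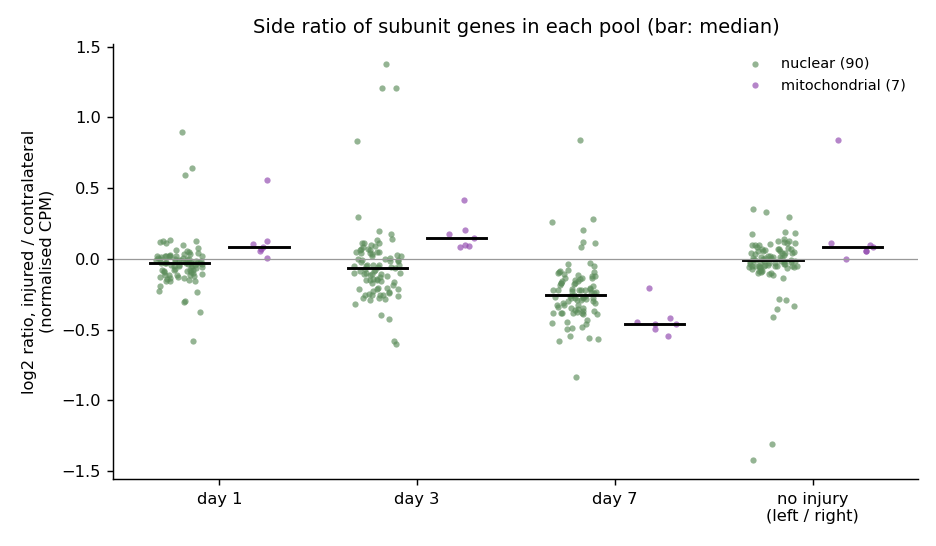
Log2 ratio of the injured over the contralateral library at days 1, 3 and 7, and of left over right in the pool labelled no injury, for each nuclear and each mitochondrially encoded member. Nuclear medians run -0.0314, -0.0659 and -0.258 over the days, and mitochondrially encoded medians 0.082, 0.144 and -0.459.

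The values show which libraries this rests on. mt-Cytb, the cytochrome b of complex III and the most abundant member per length at 3580 RPKM over all libraries, had 4347, 3814 and 3507 CPM in injured ganglia at days 1, 3 and 7, against 4182, 3451 and 4833 CPM in contralateral ganglia and 4439 and 4151 CPM in no-injury ganglia. The contralateral libraries hold both extremes: day 7 was the highest of all 8 and day 3 the lowest. mt-Co1, the catalytic subunit of complex IV, repeated this with 4322, 3590 and 3363 CPM in injured ganglia, against 4111, 3125 and 4497 CPM in contralateral ganglia and 3937 and 3792 CPM in no-injury ganglia. mt-Nd1, a membrane subunit of complex I at the ubiquinone site, had 2714, 2226 and 2059 CPM in injured ganglia, against 2482, 1974 and 2801 CPM in contralateral ganglia and 2571 and 2377 CPM in no-injury ganglia. Its contralateral values again bracket all the others.

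The proton-pumping complex I subunits mt-Nd2, mt-Nd4 and mt-Nd5 had their highest value in the contralateral day 7 library too. mt-Nd2 had 1585, 1434 and 1310 CPM in injured ganglia at days 1, 3 and 7, against 1474, 1347 and 1912 CPM in contralateral ganglia and 1799 and 1699 CPM in no-injury ganglia. mt-Nd5 had 2409, 1991 and 1832 CPM in injured ganglia, against 2402, 1878 and 2582 CPM in contralateral ganglia and 2166 and 2167 CPM in no-injury ganglia. For both genes the injured and contralateral groups overlapped, and the spread between the contralateral pools exceeded the difference of the means: mt-Nd2 averaged 1440 ± 138 CPM in injured and 1580 ± 296 CPM in contralateral ganglia (SD, n = 3 each). The 6 genes other than mt-Nd6 had log2 fold changes of -0.05 to -0.14, and none of the 7 passed (edgeR adjusted p of 0.459 to 0.83; 0 at an unadjusted p under 0.05).

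mt-Nd6, the only mRNA encoded on the opposite strand of the mitochondrial genome (chrM:13552-14070, minus strand), was far lower at 30.1 RPKM. It had 17.1, 16.6 and 16.4 CPM in injured ganglia at days 1, 3 and 7, against 11.6, 12.4 and 18.9 CPM in contralateral ganglia and 20.5 and 11.5 CPM in no-injury ganglia. The left and right no-injury libraries thus differed more (log2 ratio 0.84) than the sides of any operated pool. Its end overlaps mt-Nd5 (chrM:11742-13565, plus strand), and since no source used here states how strand was treated in counting, reads of the overlap cannot be assigned.

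Without the day 7 pool the fitted log2 fold changes of mt-Nd1, mt-Nd2, mt-Nd4, mt-Nd5, mt-Cytb and mt-Co1 turned positive, 0.15, 0.09, 0.08, 0.04, 0.09 and 0.13, so the sign of these 6 genes was set by that pool. The nuclear median kept its sign without any 1 operated pool, at -0.16, -0.15 and -0.05 without days 1, 3 and 7.

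Summed over the 7 genes, mitochondrially encoded reads took 1.66%, 1.46% and 1.34% of all reads in injured ganglia at days 1, 3 and 7, against 1.61%, 1.29% and 1.85% in contralateral ganglia and 1.66% and 1.57% in no-injury ganglia. The 90 nuclear genes took 0.971%, 0.907% and 0.871% in injured ganglia, against 1.02%, 0.943% and 0.992% in contralateral ganglia and 0.985% and 0.981% in no-injury ganglia. The nuclear share was lower on the injured side at each day, while the mitochondrial share was higher at days 1 and 3 and lower at day 7. On the log2 scale the ratio of mitochondrial to nuclear reads therefore differed by 0.12, 0.24 and -0.27 at days 1, 3 and 7 (injured minus contralateral), beside 0.08 for left minus right without injury. Reads of the mitochondrial rRNA genes, which stand in the same genome, were 0.0476%, 0.0583% and 0.0455% in injured ganglia, against 0.0484%, 0.0371% and 0.0528% in contralateral ganglia and 0.0369% and 0.0358% in no-injury ganglia. With 1 library per side and day these differences were not tested.

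**Figure D4:**
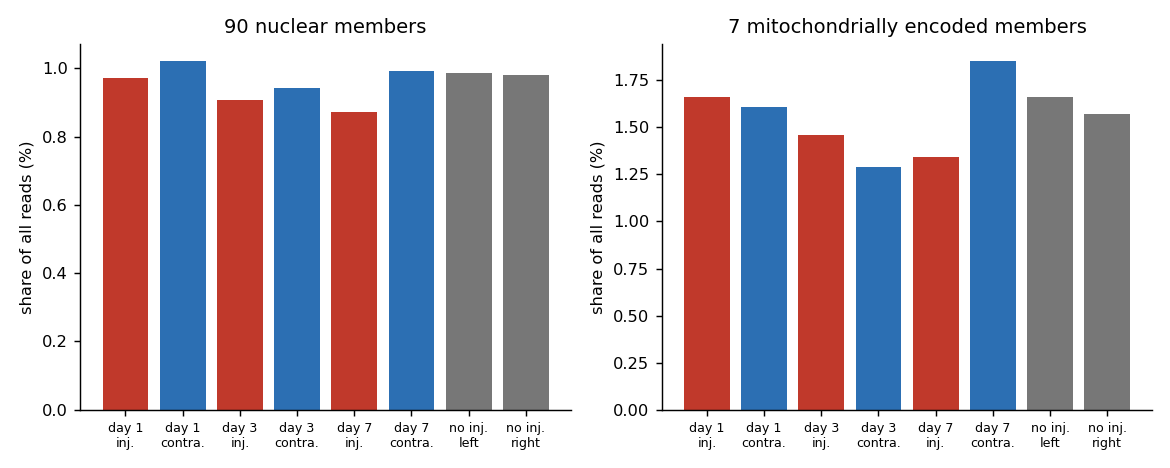
Share of all reads, in percent, that fell on the 7 mitochondrially encoded and the 90 nuclear members in each library. The mitochondrial share spans 1.29% to 1.85%, both in contralateral libraries, and the nuclear share is lowest, at 0.871%, in the injured day 7 library.

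The mitochondrially encoded set is incomplete. mt-Co2, mt-Co3, mt-Atp6, mt-Nd3 and mt-Nd4l are listed at 0 in every library, and 98.0% to 100% of the 50-base stretches of these genes also occur in annotated nuclear copies such as Gm28661 and Gm28437. mt-Atp8, which shares no stretch with other annotated transcripts, is listed with 1 read. Copies outside annotated transcripts were not searched. Of the genes analysed, mt-Nd4 shares 62.2% and mt-Co1 51.1% of its stretches with nuclear copies, so their counts are uncertain, while mt-Nd1, mt-Cytb and mt-Nd6 share none. The authors' handling of reads that fit several genes is not stated in what was used here.

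A test of the change of the injury effect with time (injured state by log2 of the day, pool as a block) called no gene of 16244 in either direction with edgeR (0% higher and 0% lower), so none of the set. At an unadjusted p under 0.05, 15 nuclear genes and 1 mitochondrially encoded gene had a falling trend and 0 a rising one, against 4.33% and 3.67% of all genes. Fitted slopes were below 0 for 83 of 90 nuclear and 7 of 7 mitochondrially encoded genes, against 53.2% of all genes, with medians of -0.07 and -0.18 per unit of log2 day. The lowest p among nuclear genes belonged to the complex I subunits Ndufb3 (-0.21 ± 0.06), Ndufc2 (-0.16 ± 0.05) and Ndufb5 (-0.17 ± 0.05), with edgeR adjusted p of 0.44, 0.441 and 0.454. Ndufb3 had 56.7, 40.5 and 40.1 CPM in injured ganglia at days 1, 3 and 7, against 55.3, 54.4 and 58.6 CPM in contralateral ganglia and 61.7 and 54.6 CPM in no-injury ganglia. Its injured day 1 library was level with the contralateral and no-injury ones and the later injured libraries were below all others. Ndufb5 had 78.5, 60.9 and 53.5 CPM in injured ganglia, against 82.9, 69.2 and 80.2 CPM in contralateral ganglia and 81.5 and 81.0 CPM in no-injury ganglia; it shares 11.2% of its stretches with Mrpl47. Among the 7 nuclear genes with positive slopes, Ndufaf5, Cox8b and Cox6b2 had the lowest p (edgeR adjusted p of 0.793, 0.834 and 0.866), and each slope turned negative when 1 pool was left out. Without the day 7 pool the nuclear median slope was -0.02 and the mitochondrially encoded one 0.03.

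Among subunits that come in tissue-specific or paralogous versions, the broadly expressed forms showed values near those of the set. On the log2 scale Cox4i1 stood at -0.11, Cox6a1 at -0.03, Cox6b1 at -0.01 and Cox7a2 at -0.14. Cox8a stood at -0.10, Atp5g1 at -0.15 and Atp5g3 at -0.09, and none of these forms was called (edgeR adjusted p of 0.196 to 0.907). The paralogue Cox7a2l stood at -0.09 (edgeR adjusted p = 0.28). The restricted forms were near the floor of detection, at which 3 reads equal 0.142 CPM. Cox4i2, the form known from lung, had 0.898, 0.465 and 0.564 CPM in injured ganglia at days 1, 3 and 7, against 1.13, 0.756 and 1.08 CPM in contralateral ganglia and 0.958 and 0.742 CPM in no-injury ganglia. It was lower on the injured side at each day, at a log2 fold change of -0.64 ± 0.30 that missed the threshold (edgeR adjusted p = 0.174). Cox7c, a small complex IV subunit with no tissue-specific partner in the set, was as low: it had 0.898, 1.67 and 1.83 CPM in injured ganglia, against 0.564, 0.897 and 0.984 CPM in contralateral ganglia and 0.958 and 0.834 CPM in no-injury ganglia. It was higher in every pool by 0.83 ± 0.26 (edgeR adjusted p = 0.059), rests on 183 reads in all, and shares 22.1% of its stretches with other genes, so its level is uncertain. Ndufa4l2, a paralogue of Ndufa4 known as a hypoxia-responsive gene, stood at 0.54 and the testis form Cox6b2 at 0.34 (edgeR adjusted p = 0.357 and 0.504), with side ratios at day 3 of 1.38 and 1.21.

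The extremes of the side ratio within a pool were mostly such low genes. At day 1 they were Atp5l at 0.90 and Cox6a2 at 0.64 at the high end and Cox8b at -0.58 and Cox6b2 at -0.38 at the low end. At day 3 Cox4i2 at -0.60 and Cox8b at -0.58 were lowest. At day 7 Cox7c at 0.84 and Ndufa4l2 at 0.28 were highest, and Cox4i2 at -0.83 and the well expressed Ndufb5 at -0.58 were lowest.

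No gene of the set passed edgeR's test against the pool labelled no injury, on either side. In injured against no-injury ganglia 0.0236% of 16924 genes were called lower and 0.112% higher, and at an unadjusted p under 0.05 3 nuclear genes were lower and 0 higher, against 6.2% and 7.72% of all genes. In contralateral against no-injury ganglia 0.155% of 16747 genes were called lower and 0.125% higher, and 3 nuclear genes were lower and 1 higher unadjusted, against 4.74% and 4.1%. Both comparisons use the same no-injury libraries, summed to 1 sample assumed to vary like the others. The median nuclear log2 fold change was -0.13 for injured and -0.02 for contralateral ganglia, and the mitochondrially encoded one -0.08 and -0.04. Cox5a, a structural subunit of complex IV, had 169, 169 and 168 CPM in injured ganglia at days 1, 3 and 7 and 173, 167 and 173 CPM in contralateral ganglia, against 148 and 154 CPM in no-injury ganglia. All operated libraries were above the pool labelled no injury, at log2 fold changes of 0.16 for injured and 0.18 for contralateral ganglia (edgeR adjusted p = 0.511 and 0.523). Ndufaf3 at -0.45 and Ndufs4, a complex I subunit, at -0.28 were lower in injured than in no-injury ganglia without passing (edgeR adjusted p = 0.332 and 0.338). Atp5d at 0.18 and Atp5l at 0.53 were on the higher side (edgeR adjusted p = 0.508 and 0.562), as were Atp5g3 and Uqcrc1 at 0.13 each in contralateral ganglia (edgeR adjusted p = 0.696 and 0.747).

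The largest differences from the no-injury pool were those of the heart and skeletal muscle forms of complex IV subunits. Cox6a2 had 0.200, 0.232 and 0.658 CPM in injured ganglia at days 1, 3 and 7 and 0.0940, 0.0472 and 0.703 CPM in contralateral ganglia, against 1.92 and 5.28 CPM in no-injury ganglia. Cox8b had 0, 0 and 0.423 CPM in injured ganglia and 0.0470, 0.0472 and 0.516 CPM in contralateral ganglia, against 0.766 and 2.04 CPM in no-injury ganglia. Both were highest in the right no-injury library and next in the left. Cox7a1 had 1.70, 2.23 and 1.17 CPM in injured ganglia and 1.55, 2.22 and 1.78 CPM in contralateral ganglia, against 2.87 and 3.52 CPM in no-injury ganglia. The summed level of 14 skeletal muscle markers, of which Pvalb also marks some sensory neurons, moved with them. It was 101, 96.0 and 202 CPM in injured ganglia and 119, 105 and 230 CPM in contralateral ganglia, against 341 and 1658 CPM in no-injury ganglia, with none of the 14 at 0 in all libraries. The part of muscle RNA in these values was not tested. Cox6a2 had log2 fold changes of -3.29 in injured and -3.66 in contralateral ganglia (edgeR adjusted p = 0.199 and 0.424), Cox8b of -3.26 and -2.76 (edgeR adjusted p = 0.378 and 0.476) and Cox7a1 of -0.91 and -0.79 (edgeR adjusted p = 0.413 and 0.496). Cox6a2 passed in both comparisons without the filter on low counts or without the day 1 library, and Cox8b in the contralateral one.

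**Figure D5:**
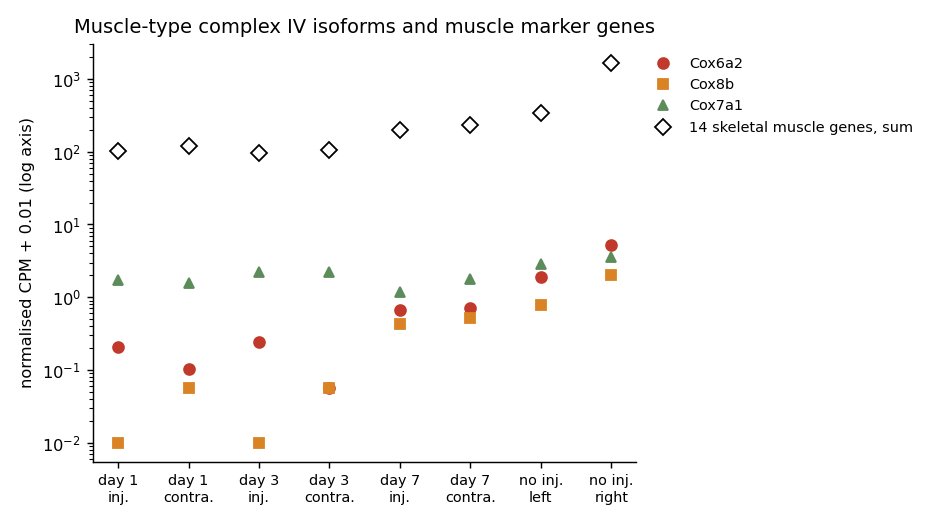
TMM-normalised CPM of the muscle forms Cox6a2, Cox8b and Cox7a1 in each library, beside the summed level of the 14 skeletal muscle markers. The right no-injury library is highest in each, at 5.28, 2.04 and 3.52 CPM for the subunits and 1658 CPM for the markers.

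Marker levels of several cell types differed between sides too, which in bulk tissue does not measure cell numbers. Summed over 15 macrophage markers the level was 115, 477 and 470 CPM in injured ganglia at days 1, 3 and 7, against 154, 134 and 229 CPM in contralateral ganglia and 232 and 165 CPM in no-injury ganglia, with 4 of 15 genes called higher and 0 lower, against 10.1% and 8.02% of all genes. For 12 markers of satellite glia and Schwann cells it was 6093, 9152 and 9318 CPM in injured ganglia, against 5809, 6127 and 8798 CPM in contralateral ganglia and 6767 and 8747 CPM in no-injury ganglia, with 3 called higher and 0 lower. Of the 20 pan-neuronal genes 5 were called lower and 0 higher, against 8.02% and 10.1% of all genes. Their median log2 side ratios were -0.01, -0.30 and -0.05 at days 1, 3 and 7. The day 7 median mixes genes that moved both ways. At that day Snap25 was at -0.78, Nefh at -0.61 and Isl1 at -0.51, while Gap43 was at 1.42, Stmn2 at 0.695 and Tubb3 at 0.594. The median therefore does not measure the neuronal share of the RNA, and its order over the days cannot be set against that of the subunit genes. The contralateral day 1 library held 518 CPM of 10 neutrophil and marrow markers, against 24.3 CPM in its injured partner. The part of these shifts in the subunit values was not tested.

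Genes that assemble or feed the respiratory chain were called lower at shares near the 8.02% of all genes. Of 46 tested assembly factors, 8 of them in the set above by symbol, 4 were lower and 0 higher: Atpaf1, a chaperone of the ATP synthase beta subunit, at -0.54 ± 0.10; Sdhaf3, a complex II factor, at -0.36 ± 0.07; Coa6, which serves copper delivery to complex IV, at -0.36 ± 0.10; and Ndufaf3. Their edgeR adjusted p were 0.0122 for Atpaf1, 0.0136 for Sdhaf3, 0.044 for Coa6 and 0.0374 for Ndufaf3. Atpaf1 averaged 22 CPM in injured and 31.6 CPM in contralateral ganglia, with side ratios of -0.30, -0.63 and -0.69 at days 1, 3 and 7. Of 17 electron carriers and related genes 2 were lower and 0 higher, Etfa, which passes electrons from fatty acid oxidation, at -0.30 and Coq8a, needed for ubiquinone synthesis, at -0.27 (edgeR adjusted p = 0.0245 and 0.0484); cytochrome c1, Cyc1, stood at -0.15 (edgeR adjusted p = 0.0944). Of 21 genes of the tricarboxylic acid cycle and pyruvate oxidation 2 were lower and 0 higher, Pdhx, a component of the pyruvate dehydrogenase complex, at -0.22 and Fh1, fumarate hydratase, at -0.19 (edgeR adjusted p = 0.0342 and 0.0383).

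Among 22 genes of mitochondrial biogenesis and mitochondrial DNA expression, 2 were lower and 1 higher, against 8.02% and 10.1% of all genes. Esrrg, an estrogen-related receptor that acts on mitochondrial genes, averaged 25.6 CPM in injured and 46.6 CPM in contralateral ganglia and had a log2 fold change of -0.87 ± 0.08 (edgeR adjusted p = 0.0017), with side ratios of -0.70, -0.84 and -1.06 at days 1, 3 and 7. Ppargc1a, which encodes the coactivator PGC-1alpha, was lower at -0.24, and its relative Pprc1 was higher at 0.42 (edgeR adjusted p = 0.0394 and 0.00542). Nrf1 stood at 0.27, Gabpa at 0.14 and Tfam, which packages and transcribes mitochondrial DNA, at -0.14, none called (edgeR adjusted p = 0.0957, 0.143 and 0.162). What these genes do to the subunit genes was not tested.

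Of the 23 glycolysis genes 5 were higher and 4 lower, against 10.1% and 8.02% of all genes. The glucose transporter Slc2a1 averaged 134 CPM in injured and 72.8 CPM in contralateral ganglia (log2 0.86 ± 0.12), and Slc2a3, Pfkfb3, Pgk1 and the lactate transporter Slc16a1 were higher at 0.33, 0.34, 0.40 and 0.19. Pdk1, a kinase that inhibits pyruvate dehydrogenase, was lower at -0.35, as were the phosphofructokinases Pfkm at -0.39 and Pfkl at -0.28 and the lactate dehydrogenase Ldhb at -0.34. All 9 had edgeR adjusted p between 0.00843 and 0.0431. The median of the list was 0.04, beside 0.02 for all genes tested.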

How the data were processed

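RNA sequencing counts of 8 libraries from mouse dorsal root ganglia were used. The authors deposited whole-number read counts per gene, and no column outside the 8 samples was present. The submitters' processing notes list STAR 2.5.4a, featureCounts 1.6.3, cutadapt 1.16, DESeq2 and the build GRCm38; strand setting, annotation release and the treatment of multi-mapping reads are not given in the sources used. Symbols, positions and biotypes came from GENCODE M21 (GRCm38), which matched 53706 of 53801 gene IDs. Library totals of 20488115 to 21652688 reads differ little; a gene listed at 0 may have up to 3 reads, or 0.142 CPM, by counting error alone. No library pair agreed within sampling noise (lowest chi-square per gene 6.05).

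Differences were tested by quasi-likelihood in edgeR 4.0.16 (R 4.3.3) with TMM scaling, robust fitting, filterByExpr at a minimum count of 10 and Benjamini-Hochberg adjustment over all genes tested, at 0.05. The injury effect was fitted on injured state, blocked by pool (3 residual degrees of freedom); the time trend and the comparisons with no injury had 2. Each mouse is its own control by the design text, so pools pair the sides; deviations of the sides correlated by 0.249, -0.0618 and 0.356 at days 1, 3 and 7. The pools are the replicates, and p-values rest on the spread between them, with differences in time included. For the injury effect and the time trend that spread also takes in the left-right difference inside the pool labelled no injury. edgeR further shares information on the spread across genes. Side ratios used log2 of TMM-normalised CPM with a prior count of 2 and have no test. Alternatives were RLE size factors, scaling from nuclear genes, no filter, DESeq2 1.42.0, limma-voom (limma 3.58.1), no block, side as a term and libraries left out. Shared sequence was counted as identical 50-base stretches of GENCODE M21 transcripts. It is given for some genes only, so a gene named without it may share sequence too. The NRF1 and YY1 motif letters were shortened by 1 base after a first search of the promoters. Scripts were tested on simulated counts.

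Reads of the mitochondrial rRNA genes and the summed marker levels are descriptions. The members, the other gene lists and the tests were chosen with earlier results of these data known. Named genes are the 4 with the lowest p in complexes I, III, IV and V, all of complex II, all mitochondrially encoded genes, the paralogous isoforms, the 3 lowest p each way for the trend and for the comparisons with no injury, the 2 extremes of each pool, up to 3 per other list and those nearest the limit of 50 reads. Beyond this rule Ndufaf3, Ndufaf4, Atp5b, Cyc1, Coa6, the glycolysis genes past the third, Nrf1, Gabpa and Tfam were chosen after their values were seen. So were the pan-neuronal genes Rbfox3, Nefh, Gap43, Stmn2 and Tubb3. At that limit Cox8b (82 reads), Cox4i2 (139) and Ndufa4l2 (166) are just inside and Atp5g2 (34) and Cox7b2 (21) just outside; Cox8c is listed at 0.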

Additional observations from a re-analysis of the deposited data

Results flagged for a closer look

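The 7 mitochondrially encoded genes had a median log2 ratio of injured to contralateral ganglia of 0.144 at day 3, above 0 in all 7, and of -0.459 at day 7, below 0 in all 7. It stands out because the whole set moved one way at one day and the opposite way at the other; the difference between the days was not tested, since each day has 1 library a side. The contralateral libraries hold the lowest (1.29%, day 3) and the highest (1.85%, day 7) share of mitochondrially encoded reads, while the injured libraries of these days hold 1.46% and 1.34%.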

How the results depend on the processing

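The count of nuclear genes lower with injury was 7 as reported, 12 with no filter on low counts, 8 with RLE size factors, 8 with DESeq2 (which called Sdha and Atp5a1 and lost Ndufaf3), 6 with limma-voom or with scaling from nuclear genes (both without Sdhd), 0 with side as a further term and 1 without the pool labelled no injury. Leaving out 1 operated pool gave 0 to 22; the cause was not tested. limma-voom called 1 nuclear gene higher, Cox7c, at the edge of the threshold. Without the replicate block the count was 8, and Ndufb9 was the gene named here that lost its call. For the trend, leaving out 1 pool gave 0 to 1 lower nuclear and 0 to 1 lower mitochondrially encoded genes. For contralateral against no injury, lower nuclear calls were 2 with no filter and 0 to 2 with 1 library left out. For injured against no injury they were 1 with no filter, with DESeq2 and with left and right as separate samples (Cox6a2 each time), and 0 to 13 with 1 library left out, 13 without day 1. For side ratios, unscaled CPM gave 4 lower nuclear genes at day 1, and a 1.5-fold limit gave 0, 1 and 1 lower nuclear genes at days 1, 3 and 7 (day 7: 1.11%, against 7.55% of all genes), 0 higher mitochondrially encoded genes at days 1 and 3 and 0 lower at day 7.

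Signs turned for mt-Nd6 (-0.593) with side as a term. With 1 operated pool left out the log2 fold change ranged from -0.00247 to 0.0573 for Sdhb, -0.156 to 0.146 for mt-Nd1, -0.229 to 0.0925 for mt-Nd2, -0.187 to 0.0834 for mt-Nd4, -0.244 to 0.0389 for mt-Nd5, -0.202 to 0.0946 for mt-Cytb and -0.172 to 0.131 for mt-Co1, and the slope from -0.0624 to 0.183 for Ndufaf5, -0.823 to 1.06 for Cox6b2 and -0.00712 to 2.38 for Cox8b. Unscaled CPM kept the sign of each class median at each day and turned the nuclear left-to-right median to 0.00439. Cox4i2, Cox8b and Cox7c rest on 139, 82 and 183 reads over all libraries.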
